A study of Rattus norvegicus with 46 samples.

Results

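Alveolar type 1 cells are the thin, spread epithelial cells that line most of the gas-exchange surface of the lung. They arise from type 2 cells, the cuboidal cells that make surfactant, and pass through a keratin-rich transitional state on the way. Inhaled particles settle on their surface, and they are among the cells that crystalline silica, the mineral behind silicosis, is known to injure. A set of 9 genes that mark these cells was followed here: Ager, Aqp5, Pdpn, Hopx, Igfbp2, Cav1, Gprc5a, Clic5 and Akap5. The genes were taken by name from lung tables of 30045 genes each, every name stood on 1 row, and all 9 passed the filter on low counts in each comparison.

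The lungs came from male Fischer 344 rats, described as aged in the title of the series, with no age given in the labels. Rats breathed crystalline silica dust (Min-U-Sil 5, 15 mg/m3) or filtered air for 6 hours a day on 5 days and were killed 6 months or 1 day afterwards. Of 22 lung samples, 5 pairs within a group were far closer to each other than the remaining pairs, with 7.74% to 9.36% of genes differing at p under 0.05 against 21% or more, where sampling noise alone gives 5%. Each such pair was averaged and counted as 1 library; these shares come from genes with whole counts, a restriction chosen after seeing the data. Over all genes the same pairs had 9.58% to 11.5%, and only 1 of the 5 was under the limit of 10%, so the number of libraries in 3 of the 4 groups rests on that restriction. This left 5 silica and 2 air libraries at 6 months, and 6 silica and 4 air libraries at 1 day. A further 24 samples of the series were of blood. Nothing in the labels states that each sample came from its own animal, so p-values measure only the spread between these samples. The control at each time is air, so the comparisons of times within air or within silica also carry 6 months of ageing and a separate deposited table, which cannot be told apart from time after exposure.

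The 22 lung samples held 13369307 to 24638413 counts each, and levels are given as CPM, counts brought to 1 common total per library, after TMM scaling, a correction for differences in composition between libraries. CPM is not divided by gene length, so levels are compared between libraries and not between genes. All 9 genes were present in every lung library, as were markers of type 2 cells and of endothelium. In bulk tissue, fewer cells of a type and less RNA per cell cannot be told apart. Silica library 33 at 6 months stood apart from the others, and library 35 did so in the number of genes that were low. Of 12334 genes, 974 in library 33 and 209 in library 35 were more than 1 log2 unit below the median of the other libraries of the group, against 40 to 77 in the other 3. Counted in either direction, the share past 1 log2 unit was 8.56% in library 33 and 2.03% in library 35. By that count library 35 was not apart, as library 30-31 had 2.39%, library 32 had 1.24% and library 34 had 0.665%. The summed CPM of 84 ribosomal protein genes was 41100 in library 33 and 31000 in library 35, against 23100 to 25400 in the other late silica libraries. Late air libraries 19-24 and 20-25 had 39300 and 34300, so a high sum was not particular to libraries 33 and 35. Each result at 6 months is therefore also given without these libraries where that changes it.

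At 1 day after exposure 4 of the 9 type 1 genes were lower in silica lungs than in air lungs past an adjusted p of 0.05: Igfbp2, Hopx, Cav1 and Ager. The estimates of all 9 were below 0. Over all genes tested at this time, 4.07% fell. The median log2 fold change was -0.12 over the 9 genes and 0 over all genes. In edgeR's quasi-likelihood test 0 of 9 rose, also at an unadjusted p under 0.05, where 6 fell, and in DESeq2 6 fell and 0 rose. Over all genes, 3848 of 15724 had an unadjusted p under 0.05 in either direction. Of the 22175 genes that DESeq2 fitted, it called 886 lower and 1251 higher.

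Igfbp2, a secreted protein that binds insulin-like growth factors and marks mature type 1 cells in the mouse, moved furthest. Its lowest, median and highest levels were 9.73, 10.7 and 14 CPM in the 6 silica lungs, against 14.8, 15.4, 17.8 and 18.7 CPM in the 4 air lungs. The highest silica lung was below the lowest air lung. The share of all genes tested with no overlap between groups was not counted, for this or any later comparison. The fall was 0.681-fold of the air level (log2 fold change -0.55 ± 0.11 SE, edgeR adjusted p = 0.00641). Hopx, a small homeodomain protein that does not bind DNA, had 385, 448 and 471 CPM as the lowest, median and highest of the silica lungs, against 537, 550, 586 and 602 CPM in the air lungs. The groups did not overlap, and the log2 fold change was -0.36 ± 0.06 (adjusted p = 0.00129). Hopx counts were not whole in 100% of lung samples (tolerance 1e-06), so some of its reads were shared with other transcripts and its level is uncertain to that extent. The same held for Cav1 in 36.4% of lung samples and for none of the other 7 genes.

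Cav1, the structural protein of caveolae, had 1230, 1300 and 1380 CPM as the lowest, median and highest of the silica lungs, against 1520, 1520, 1720 and 1730 CPM in the air lungs. All 6 silica lungs were below all 4 air lungs, at a log2 fold change of -0.31 ± 0.06 (adjusted p = 0.00334). Ager encodes the receptor for advanced glycation end products, which sits on the basal face of type 1 cells. It had 1770, 1900 and 2030 CPM as the lowest, median and highest of the silica lungs, against 2160, 2210, 2260 and 2290 CPM in the air lungs. The groups were again separate, with a log2 fold change of -0.22 ± 0.05 (adjusted p = 0.0125). When all 4 lung groups shared 1 estimate of the spread, the calls of Ager (adjusted p = 0.469) and Hopx (adjusted p = 0.0523) were lost, and those of Igfbp2 and Cav1 were kept.

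The other 5 genes overlapped between groups and did not pass. Their log2 fold changes were -0.12 ± 0.05 for the water channel Aqp5 (adjusted p = 0.208) and -0.08 ± 0.04 for Pdpn, the mucin-like surface protein podoplanin (adjusted p = 0.25). Gprc5a, an orphan receptor induced by retinoic acid, had -0.11 ± 0.04 (adjusted p = 0.134). Clic5, an ezrin-linked protein of the chloride intracellular channel family, had -0.12 ± 0.05 (adjusted p = 0.183), and Akap5, a scaffold that anchors protein kinase A, had -0.12 ± 0.07 (adjusted p = 0.319). Clic5, for example, ranged from 2040 to 2330 CPM in silica lungs and from 2260 to 2580 CPM in air lungs.

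**Figure D1:**
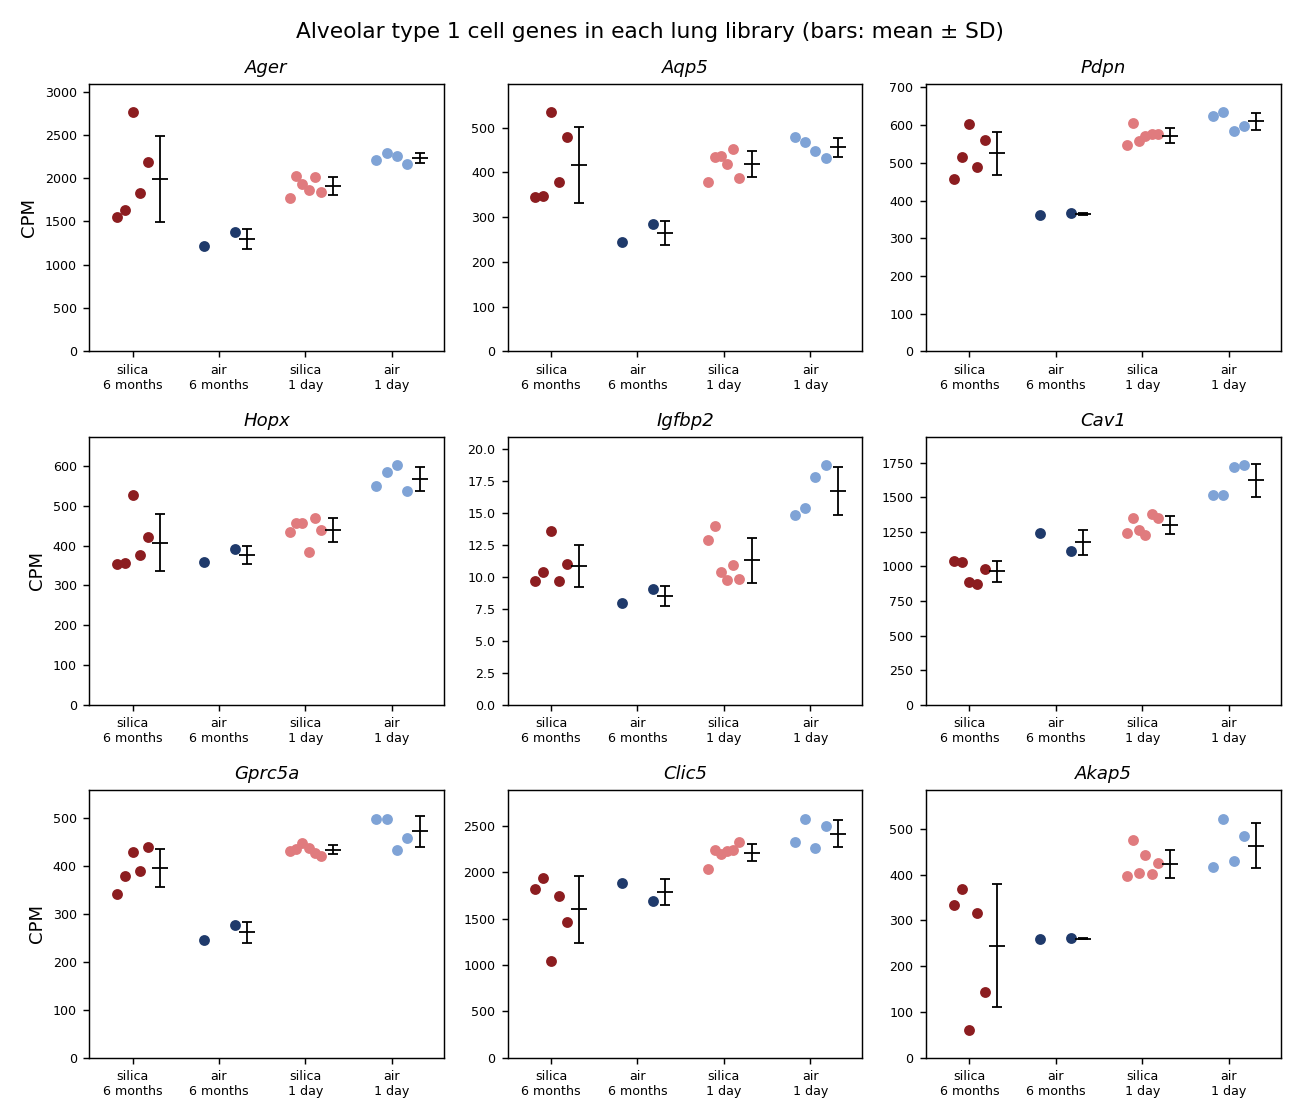
Level of each of the 9 genes in CPM (vertical axis, from 0) in every lung library after averaging the 5 close pairs, by group; black bars are the mean ± SD (n = 5 silica and 2 air libraries at 6 months, 6 silica and 4 air libraries at 1 day). Igfbp2, Hopx, Cav1 and Ager are separated between silica and air at 1 day, and the late silica libraries of Akap5 spread from 60.6 to 369 CPM. The share of all genes separated in this way was not counted.

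The promoters of the 4 genes that fell at 1 day, and of Pdpn, one of the 2 genes that rose at 6 months, are shown because these genes carry the changes. Each runs from 250 bases before to 50 bases after the annotated start, on the strand of the gene, from RefSeq on GRCr8; for Cav1, which has 2 annotated starts, the first is shown. Of the 9 genes, 8 matched the promoter table, without Gprc5a. Capitals mark matches on either strand to 5 short motifs: the TEAD core GGAATG, the GATA core AGATAA, the NK2 homeodomain core CAAGTG, the GC box GGGCGG and the TATA box TATAAA. The positions are Ager chr20:4155636-4155935 (minus strand), Hopx chr14:31429163-31429462 (plus), Igfbp2 chr9:81864561-81864860 (plus), Cav1 chr4:46606288-46606587 (plus) and Pdpn chr5:160918910-160919209 (minus).
Ager: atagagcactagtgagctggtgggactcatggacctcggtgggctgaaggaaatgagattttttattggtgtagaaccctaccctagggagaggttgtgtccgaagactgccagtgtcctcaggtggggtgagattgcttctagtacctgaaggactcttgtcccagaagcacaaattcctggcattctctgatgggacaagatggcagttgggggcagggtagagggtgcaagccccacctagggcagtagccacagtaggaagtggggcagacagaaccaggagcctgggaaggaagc
Hopx: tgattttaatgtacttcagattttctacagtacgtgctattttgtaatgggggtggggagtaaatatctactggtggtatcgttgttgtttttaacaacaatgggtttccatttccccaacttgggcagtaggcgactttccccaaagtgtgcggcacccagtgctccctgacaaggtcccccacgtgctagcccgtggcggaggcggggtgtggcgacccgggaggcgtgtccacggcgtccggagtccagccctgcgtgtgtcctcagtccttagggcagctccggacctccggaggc
Igfbp2: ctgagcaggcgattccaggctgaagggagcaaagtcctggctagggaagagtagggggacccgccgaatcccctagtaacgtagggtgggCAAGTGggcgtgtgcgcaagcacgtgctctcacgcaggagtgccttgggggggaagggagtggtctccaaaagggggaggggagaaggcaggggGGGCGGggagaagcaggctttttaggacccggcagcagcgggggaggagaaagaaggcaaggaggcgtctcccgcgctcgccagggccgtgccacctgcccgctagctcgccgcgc
Cav1: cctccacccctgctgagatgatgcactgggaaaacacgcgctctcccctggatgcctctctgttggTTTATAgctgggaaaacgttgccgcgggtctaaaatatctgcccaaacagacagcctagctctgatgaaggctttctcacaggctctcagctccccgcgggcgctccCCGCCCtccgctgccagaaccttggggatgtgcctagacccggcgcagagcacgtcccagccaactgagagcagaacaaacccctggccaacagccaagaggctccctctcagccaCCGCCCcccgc
Pdpn: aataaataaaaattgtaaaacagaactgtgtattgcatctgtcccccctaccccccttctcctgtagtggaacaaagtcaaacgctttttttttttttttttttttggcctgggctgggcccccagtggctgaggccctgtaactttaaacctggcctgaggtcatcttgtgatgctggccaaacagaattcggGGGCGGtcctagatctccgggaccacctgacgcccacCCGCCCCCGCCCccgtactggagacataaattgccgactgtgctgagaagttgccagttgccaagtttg
The Ager and Hopx windows held no match to any of the 5 motifs. Igfbp2 held an NK2 core at position -160 from its start, a motif found in 14.1% of all 33469 promoters of the same length, and a GC box at -66. GC boxes, found in 33.1% of promoters, also stood at -56, -19 and -13 in Pdpn and at -77 and 40 in Cav1. Cav1 held the TATA letters on the opposite strand at -184, a match found in 14.2% of promoters. None of the 8 matched genes held a TEAD core (14.2% of promoters) or a GATA core (11.6%). The 5 promoters did not share 1 motif.

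Other genes of the same cells, structures and pathways were read beside these. Of 21 other type 1 genes tested at 1 day, 6 fell, with a median log2 fold change of -0.11. They included Cyp4b1, a cytochrome P450 (-0.36 ± 0.05, adjusted p = 0.000604), Krt7, an epithelial keratin (-0.30 ± 0.05, adjusted p = 0.00119), and Vegfa, the endothelial growth factor (-0.26 ± 0.04, adjusted p = 0.000941). Vegfa was at 774 to 875 CPM in silica lungs and at 994 to 1030 CPM in air lungs, with no overlap. Among regulators of type 1 fate, 3 of 15 fell and 2 rose. Klf5, a transcription factor, had -0.35 ± 0.08 (adjusted p = 0.00973), while Nkx2-1, the lung lineage factor, had 0.23 ± 0.05 (adjusted p = 0.00486). Without air library 06 only 1 of the 15 fell.

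Partners of Cav1 moved with it in part. Of 8 other caveola genes 4 fell, 0 rose and 4 did not pass, and 2 of the 8 had estimates above 0. The 4 that fell were Cav2, the partner caveolin (-0.27 ± 0.06, adjusted p = 0.00865), Ehd2 (-0.26 ± 0.04, adjusted p = 0.00117), Sdpr (-0.24 ± 0.05, adjusted p = 0.00411) and Ptrf (-0.20 ± 0.06, adjusted p = 0.037), coat and neck proteins of caveolae. Caveolae are also abundant in endothelium, and endothelial markers were lower in the same lungs: 7 of 12 fell, or 3 of 12 without air library 06. Their summed level was 5060 to 5650 CPM in silica lungs and 5860 to 6900 CPM in air lungs. No endothelial marker was at 0, and the part of endothelium in the fall of Cav1 was not tested.

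The partners of the other genes moved in both directions. Of 9 ligand genes of the Ager receptor tested, S100a9 (1.90 ± 0.14, adjusted p = 2.54e-05) and S100a8 (1.1 ± 0.15, adjusted p = 0.00115), calgranulins of neutrophils, rose and S100a6 fell (-0.25 ± 0.04, adjusted p = 0.00225). S100a9 had 299, 327 and 476 CPM as the lowest, median and highest of the silica lungs, against 81.3 to 109 CPM in the air lungs. Beside Igfbp2, the related binding protein Igfbp3 fell (-0.48 ± 0.07, adjusted p = 0.000941) and the growth factor Igf1 rose (0.34 ± 0.06, adjusted p = 0.00147), among 12 genes of that axis tested. Beside Aqp5, the endothelial water channel Aqp1 fell (-0.31 ± 0.06, adjusted p = 0.00702) and Aqp9, a water and glycerol channel, rose (0.68 ± 0.19, adjusted p = 0.0302), of 4 other aquaporins tested. Of 8 podoplanin partners tested 1 rose and 1 fell. The riser was Cd44, a receptor that binds podoplanin (0.46 ± 0.05, adjusted p = 3.42e-05). Among 15 relatives of Gprc5a, Clic5 and Akap5, the family member Clic1 rose (0.35 ± 0.04, adjusted p = 5.5e-05). Akap12 (-0.23 ± 0.05, adjusted p = 0.016), Clic3 (-0.19 ± 0.04, adjusted p = 0.0144) and Akap11 (-0.18 ± 0.04, adjusted p = 0.0123) fell, and none of these 3 falls passed without air library 06.

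Type 2 cell markers went the other way from the type 1 genes, with 7 of 10 rising at 1 day. Within each library, the mean log2 CPM of the 9 type 1 genes minus that of 10 type 2 genes was -1.50 to -1.30 in silica lungs and -0.96 to -0.85 in air lungs. These ranges did not overlap, and are given as a description with no test. Macrophage and neutrophil markers rose in 6 of 8 tested, with summed levels of 1760 to 2210 CPM in silica lungs and 826 to 985 CPM in air lungs. RNA of incoming cells enters the total that CPM is divided by, and the part of that in the lower type 1 genes was not tested.

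At 6 months after exposure Gprc5a and Pdpn were higher in silica lungs than in air lungs, and no gene of the 9 fell past the threshold. In edgeR's quasi-likelihood test 2 of 9 rose and 0 fell, where 9.51% of all genes tested rose. At an unadjusted p under 0.05, 4 rose and 0 fell, and DESeq2 likewise called 4 higher and 0 lower. Over all genes, 5575 of 16267 had an unadjusted p under 0.05 in either direction. Of the 21854 genes that DESeq2 fitted, it called 2145 higher and 2036 lower. The median log2 fold change was 0.39 over the 9 genes and 0 over all genes.

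Gprc5a had 341, 379, 429, 388 and 440 CPM in the 5 silica lungs, against 246 and 276 CPM in the 2 air lungs. Every silica lung was above both air lungs, with a log2 fold change of 0.63 ± 0.14 (adjusted p = 0.0204). Pdpn had 456, 516, 603, 490 and 560 CPM in silica lungs, against 362 and 367 CPM in air lungs. The groups did not overlap, at a log2 fold change of 0.56 ± 0.14 (adjusted p = 0.0316). Both calls rest on few air libraries. Without air library 19-24 the adjusted p was 0.218 for Gprc5a and 0.238 for Pdpn, without air library 20-25 it was 0.0778 and 0.138, and without silica library 35 it was 0.0526 and 0.0800. Pdpn also missed the threshold without silica library 32 (0.0601) or 34 (0.0607).

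Podoplanin is also made by lymphatic endothelium and mesothelium. Of 6 lymphatic markers, 0 passed at 6 months in edgeR or DESeq2, with 1 higher and 0 lower at an unadjusted p under 0.05. Their summed level was 369 to 478 CPM in silica lungs and 373 to 409 CPM in air lungs. The 4 mesothelial markers summed to 42.2 to 84.1 CPM in silica lungs and 32.4 to 59.7 CPM in air lungs, with 0 called in edgeR, 1 higher and 0 lower at an unadjusted p under 0.05, and 1 higher in DESeq2.

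Ager and Aqp5 were also higher in every late silica lung than in both air lungs, but did not pass. Ager had 1550, 1630, 2760, 1830 and 2190 CPM in silica lungs, against 1220 and 1380 CPM in air lungs (log2 fold change 0.65 ± 0.25, adjusted p = 0.108). Aqp5 had 346, 348, 534, 379 and 479 CPM in silica lungs, against 245 and 284 CPM in air lungs (0.69 ± 0.21, adjusted p = 0.0563). In both genes the highest silica library was 33 and the next was 35. Without these 2 libraries together, a choice made after seeing the data, the spread was narrower and both passed, Ager at 0.42 ± 0.12 (adjusted p = 0.0441) and Aqp5 at 0.49 ± 0.10 (adjusted p = 0.0227). Without library 33 alone Ager did not pass (adjusted p = 0.0602) and Aqp5 did (adjusted p = 0.036). Without library 35 alone neither Ager (adjusted p = 0.196) nor Aqp5 (adjusted p = 0.117) passed.

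Igfbp2 had 9.66, 10.4, 13.6, 9.63 and 11 CPM in late silica lungs, against 7.95 and 9.06 CPM in late air lungs, and did not pass (0.39 ± 0.19, adjusted p = 0.185). Hopx had 355, 357, 527, 376 and 422 CPM in silica lungs, against 360 and 392 CPM in air lungs, with overlap (0.15 ± 0.18, adjusted p = 0.601). Cav1, Clic5 and Akap5 had estimates below 0. Cav1 had 1040, 1030, 887, 876 and 984 CPM in silica lungs, against 1240 and 1110 CPM in air lungs, so that every silica lung was below both air lungs, and it did not pass (-0.25 ± 0.13, adjusted p = 0.226).

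Akap5 and Clic5 split the late silica lungs. Akap5 had 333, 369, 60.6, 317 and 144 CPM in silica libraries 30-31, 32, 33, 34 and 35, against 259 and 261 CPM in air lungs. Libraries 33 and 35 were below both air lungs and the other 3 above them, and the fitted log2 fold change was -0.05 ± 0.60 (adjusted p = 0.962). Without libraries 33 and 35 it was 0.44 ± 0.09 (adjusted p = 0.0226), a change of sign. Akap5 did not pass without library 33 alone (0.22, adjusted p = 0.665) or without library 35 alone (0.09, adjusted p = 0.942). Clic5 had 1820, 1940, 1040, 1750 and 1460 CPM in the same order, against 1890 and 1690 CPM in air lungs (-0.13 ± 0.24, adjusted p = 0.748), and its estimate without libraries 33 and 35 was 0.09 ± 0.10 (adjusted p = 0.511). Clic5 too was lowest in library 33 and next lowest in library 35, the libraries in which Ager was highest. The ratio of Ager to Akap5 was 45.6 in library 33 and 15.2 in library 35, against 4.2 to 5.77 in the other 15 lung libraries. With both libraries left out, 5 of 9 genes rose at 6 months (Ager, Aqp5, Pdpn, Gprc5a and Akap5), where 14.2% of all genes tested rose. With every sample counted separately, 5 of 9 rose as well (Ager, Aqp5, Pdpn, Gprc5a and Igfbp2), where 3211 of all 15910 genes tested rose.

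**Figure D2:**
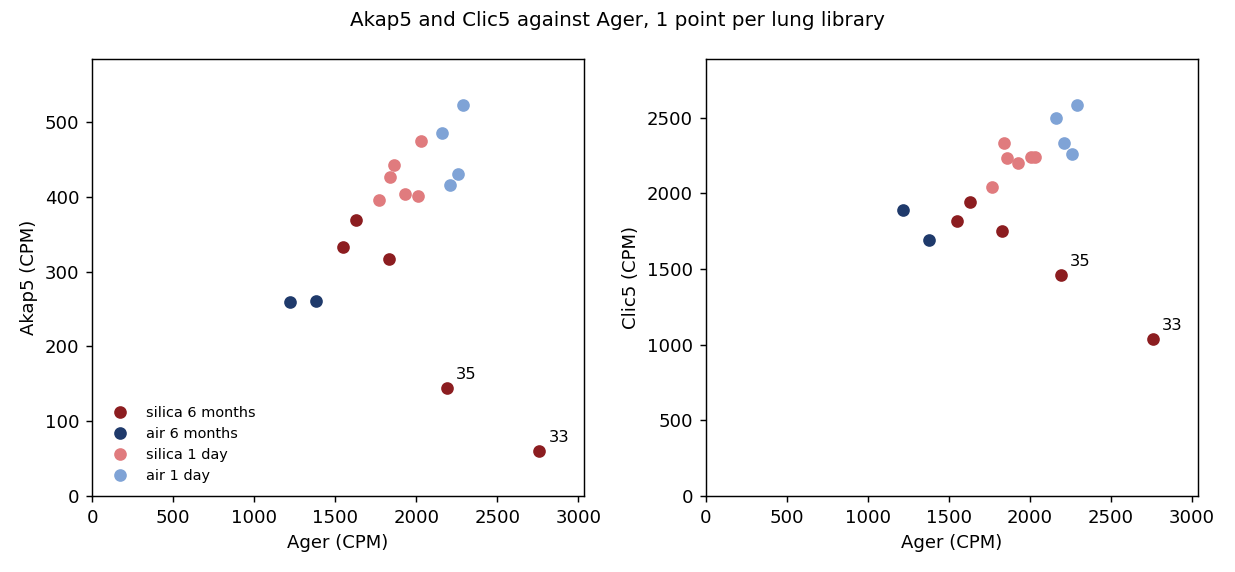
Akap5 (left, CPM) and Clic5 (right, CPM) against Ager (CPM), 1 point for each of the 17 lung libraries, coloured by group. Silica libraries 33 and 35 at 6 months, numbered, lie apart at high Ager (2760 and 2190 CPM) and low Akap5 (60.6 and 144 CPM).

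The way the 9 genes varied together within groups followed the same split. After subtracting group means over the 17 libraries, Pearson's r of log2 CPM was 0.96 between Ager and Aqp5, 0.91 between Ager and Hopx and 0.96 between Clic5 and Akap5. It was -0.90 between Ager and Akap5 and -0.88 between Ager and Clic5. Without subtracting group means these values were -0.21 and -0.08. All these values are descriptions, and the libraries share depth and composition. Libraries 33 and 35 are among them, and r was not computed without them. By the same measure over all 17 libraries without subtracting means, among 12325 genes, Ager was most like Clic3 (r = 0.983) and Krt7 (0.975), Hopx most like Pink1 (0.921), and Igfbp2 most like Dnajb2 (0.937). Pdpn (0.975) and Gprc5a (0.966) were both most like F11r, a tight junction protein. Cav1 was most like Ehd4 (0.972), Cav2 (0.965) and Erg (0.964), the last an endothelial transcription factor. Clic5 was most like Tfdp2 and Akap2 (0.984 each), and Akap5 most like Rbfox2 and Fnbp1l (0.990 each).

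Among the 21 other type 1 genes, 3 rose at 6 months: Cldn18, a tight junction claudin (0.87 ± 0.16, adjusted p = 0.0129), Mal2, a membrane trafficking protein (0.70 ± 0.13, adjusted p = 0.0122), and Scnn1g, a subunit of the epithelial sodium channel (0.50 ± 0.14, adjusted p = 0.0393). Cldn18 had 875, 1090, 1220, 1190 and 1140 CPM in silica lungs, against 588 and 648 CPM in air lungs, without overlap. Of the fate regulators, 5 of 15 rose and 1 fell. They were led by Id2, an inhibitor of helix-loop-helix factors, which fell (-1.20 ± 0.15, adjusted p = 0.00549), and by Cebpa (1.1 ± 0.21, adjusted p = 0.0133) and Nkx2-1 (1.07 ± 0.17, adjusted p = 0.00838), factors of the alveolar epithelium, which rose.

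Of 9 ligand genes of the Ager receptor, 4 rose and 1 fell. S100a9 had 498, 766, 1860, 1100 and 595 CPM in silica lungs, against 36.9 and 48.7 CPM in air lungs (4.52 ± 0.64, adjusted p = 0.00695), and S100a8 also rose (3.73 ± 0.61, adjusted p = 0.00918). Every silica lung was above both air lungs in S100a9. Hmgb1, the nuclear protein that is a classical ligand of the receptor, had -0.14 ± 0.13 (adjusted p = 0.512). Beside Pdpn, its membrane linker Ezr fell (-1.10 ± 0.13, adjusted p = 0.00527), at 350 to 442 CPM in silica lungs against 905 and 771 CPM in air lungs. Cd44 rose (0.63 ± 0.17, adjusted p = 0.0389), and beside Aqp5 the water channel Aqp4 rose (0.77 ± 0.15, adjusted p = 0.0146). Of 4 other aquaporins tested 3 rose, with a median log2 fold change of 0.97 over the 4. Beside Cav1, 1 of 8 other caveola genes tested rose and 0 fell.

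Type 2 markers rose in 8 of 10 and markers of the transitional epithelium in 6 of 10. The mean log2 CPM of the 9 type 1 genes minus that of the type 2 genes was -2.25 to -1.49 in late silica lungs, against -1.17 and -0.98 in late air lungs. So the type 1 genes stood lower relative to type 2 genes in silica lungs at this time also, while their own mean log2 CPM was 8.56 to 8.67 in silica lungs against 8.37 and 8.43 in air lungs.

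Markers of natural killer cells and large granular lymphocytes fell in 8 of 8 in silica lungs relative to air lungs, and summed to 273 to 823 CPM in silica lungs, against 3080 and 2570 CPM in air lungs. Proliferation genes fell in 6 of 6, at 111 to 255 CPM in silica lungs against 614 and 529 CPM in air lungs. The same sums at 1 day were 170 to 577 CPM for the lymphocyte list and 41.8 to 230 CPM for proliferation, over silica and air lungs alike. No marker of either list was at 0 in any lung library. The part of these cells in the levels of type 1 genes, and in the falls of Id2 and Ezr, was not tested. Without air library 19-24, 0 genes of any list named here passed at 6 months and 56 did over the whole table.

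**Figure D3:**
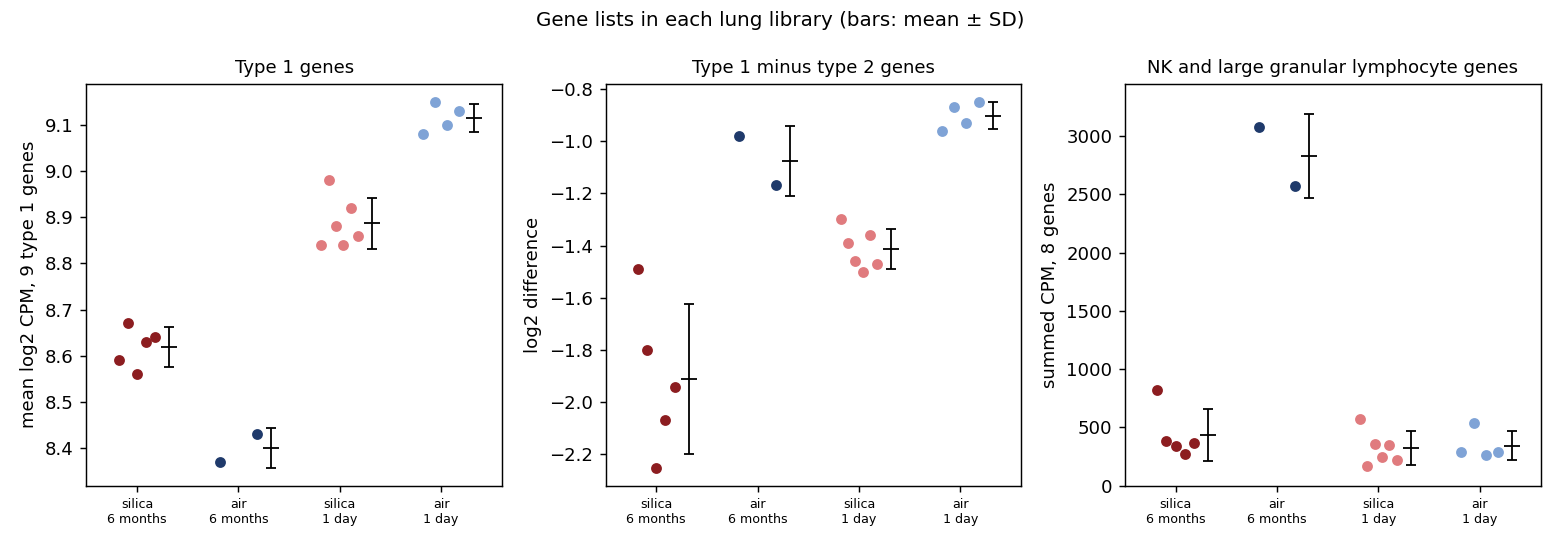
Per lung library and group: mean log2 CPM of the 9 type 1 genes (left), that mean minus the mean of 10 type 2 genes (middle, log2 difference), and summed CPM of 8 natural killer and large granular lymphocyte genes (right, from 0); black bars are the mean ± SD. The 2 late air libraries have the lowest type 1 mean (8.37 and 8.43) and the highest lymphocyte sum (3080 and 2570 CPM).

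The silica effect itself differed between the times in 6 of 9 genes, all more positive at 6 months, where 12.1% of all genes tested were called in that direction. The difference of the effects, 6 months minus 1 day, was 0.91 ± 0.21 for Igfbp2 (adjusted p = 0.00534), 0.84 ± 0.21 for Ager (adjusted p = 0.00771) and 0.78 ± 0.18 for Aqp5 (adjusted p = 0.00581) on the log2 scale. It was 0.72 ± 0.11 for Gprc5a (adjusted p = 0.000585), 0.61 ± 0.11 for Pdpn (adjusted p = 0.00135) and 0.48 ± 0.16 for Hopx (adjusted p = 0.0383). Cav1 (0.03 ± 0.12, adjusted p = 0.893), Clic5 (-0.04 ± 0.21, adjusted p = 0.922) and Akap5 (0.04 ± 0.55, adjusted p = 0.969) did not pass. Without libraries 33 and 35 Akap5 passed as well (0.54 ± 0.12, adjusted p = 0.00343), making 7 of 9, where 17% of all genes tested were called in that direction. Without air library 19-24 only Gprc5a (adjusted p = 0.0152) and Pdpn (0.0198) kept their calls, and Hopx passed in 8 of 17 fits that each left out 1 library.

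The change between the times is given next within each arm. Both arms carry ageing and a separate deposition for each time, so which group moved after exposure cannot be told. In air lungs, 7 of 9 genes fell at 6 months relative to 1 day, where 19% of all genes tested fell. The median log2 fold change of the 9 genes was -0.78, against -0.01 over all genes. Gprc5a had 246 and 276 CPM in late air lungs, against 497, 498, 433 and 458 CPM in early air lungs (-0.85 ± 0.10, adjusted p = 9.58e-06). Ager had 1220 and 1380 CPM in late air lungs, against 2160 to 2290 CPM in early air lungs (-0.78 ± 0.17, adjusted p = 0.00187). For each of the 9 genes both late air lungs were below all early air lungs. The share of all genes separated in this way was not counted, and 41.5% of all genes tested were called in this comparison in either direction.

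The other calls in air lungs were Igfbp2 (-0.97 ± 0.18, adjusted p = 0.000416), Aqp5 (-0.79 ± 0.15, adjusted p = 0.000683), Pdpn (-0.75 ± 0.09, adjusted p = 2.4e-05), Hopx (-0.60 ± 0.14, adjusted p = 0.00223) and Cav1 (-0.47 ± 0.10, adjusted p = 0.00195). Clic5 (-0.43 ± 0.18, adjusted p = 0.0573) and Akap5 (-0.84 ± 0.46, adjusted p = 0.161) did not pass in this fit, which shares its spread with libraries 33 and 35, and passed without them. All 7 calls were kept with each air library left out in turn. Of the 21 other type 1 genes, 16 fell in late air lungs, among them Spock2 (-0.84 ± 0.18, adjusted p = 0.00155), Limch1 (-0.82 ± 0.15, adjusted p = 0.00057) and Vegfa (-0.81 ± 0.11, adjusted p = 4.96e-05). Type 2 markers fell in 7 of 10 and endothelial markers in 7 of 12 of the same comparison, while the lymphocyte list rose in 8 of 8 and the proliferation list in 6 of 6. Without air library 19-24, 1 of 10 type 2 and 4 of 12 endothelial markers fell, and 13 of the 21 other type 1 genes did.

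In silica lungs, 2 of 9 genes fell at 6 months relative to 1 day, where 5.21% of all genes tested fell. Cav1 had 876 to 1040 CPM in the 5 late silica lungs, against 1230 to 1380 CPM in the 6 early silica lungs (-0.44 ± 0.07, adjusted p = 0.00234). Clic5 had 1040 to 1940 CPM in late silica lungs, against 2040 to 2330 CPM in early silica lungs (-0.47 ± 0.12, adjusted p = 0.0251). Neither gene overlapped between the times. The call of Clic5 was lost without silica library 11 (0.0515), 15 (0.0580) or 35 (0.0651). Ager (0.06 ± 0.12, adjusted p = 0.755), Aqp5 (-0.01 ± 0.10, adjusted p = 0.955) and Igfbp2 (-0.06 ± 0.12, adjusted p = 0.746) overlapped between the times. Without libraries 33 and 35, 6 of 9 genes fell in silica lungs: Cav1, Clic5, Akap5, Hopx, Pdpn and Gprc5a. Over all genes, 3.43% fell in that fit.

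The comparisons of times and of silica with air share libraries, so their values are set side by side and not tested against each other. By group, Ager had 1990 ± 494 CPM in late silica and 1300 ± 108 CPM in late air lungs, and 1900 ± 102 CPM in early silica and 2230 ± 57.9 CPM in early air lungs (SD, n = 5, 2, 6 and 4). The early air lungs were highest in the mean of each of the 9 genes. The late air lungs had the lowest mean for Ager, Aqp5, Pdpn, Hopx, Igfbp2 and Gprc5a, and the late silica lungs had it for Cav1, Clic5 and Akap5. For Clic5 and Akap5 this held only with libraries 33 and 35. Without them the late silica means were 1840 ± 96.1 CPM for Clic5 and 340 ± 26.6 CPM for Akap5 (SD, n = 3), against 1790 ± 140 and 260 ± 1.33 CPM in late air lungs (SD, n = 2). The late silica mean of Hopx was then 363 ± 11.6 CPM, below that of late air lungs. For Hopx the late groups, 407 ± 72 CPM in silica and 376 ± 22.2 CPM in air, did not differ beyond their spread.

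**Figure D4:**
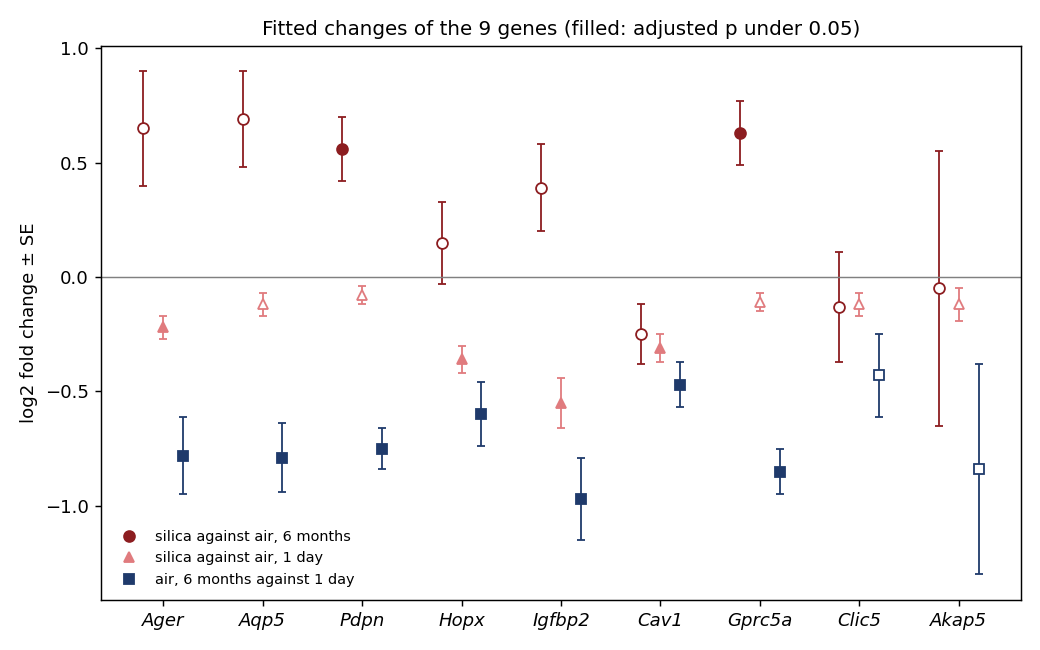
Log2 fold change ± SE (vertical axis) of the 9 genes for silica against air at 6 months (circles), silica against air at 1 day (triangles) and 6 months against 1 day in air lungs (squares); filled symbols have an edgeR adjusted p under 0.05. The air lungs fell in 7 of 9 genes between the times, and the early silica effect is negative for all 9.

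Blood gives a check on how far these genes belong to lung. In 24 blood samples Igfbp2 was at 0 in all 24 and Aqp5 in 22, and Ager, Pdpn, Cav1, Gprc5a and Akap5 reached at most 2.45 CPM. Hopx was at 105 to 214 CPM in blood and at 355 to 602 CPM in lung, and Clic5 was at 3.6 to 70.4 CPM in blood and at 1040 to 2580 CPM in lung. Hopx RNA was thus present in blood, and its part in the Hopx level of lung was not tested.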

How the data were processed

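Lung RNA was extracted with a kit for fibrous tissue and made into stranded polyA libraries, per the labels' protocols. Tools listed in the submitters' processing notes include Salmon 1.10.1 and STAR 2.6.1d, with Trim Galore 0.6.7, cutadapt 3.4 and bcl2fastq 2.19 beside them, and the build is Rnor_6.0. The authors deposited unscaled estimated counts for each gene, as Salmon makes them; 0 columns were left unmatched. Salmon shares reads between similar transcripts, so estimated counts need not be whole, and they were rounded. Pairs of libraries of a group were averaged when under 10% of genes differed at p under 0.05 in a chi-square test of counts. That test used genes averaging 20 or more counts whose counts were whole in every sample, a restriction added after seeing the data: the 5 averaged pairs had 7.74% to 9.36% of genes, the other 46 pairs 21.0% to 72.6%. Over all genes it was 9.58% to 11.5% for the averaged pairs, 1 of them under the limit, and 22.8% to 74.2% for the others.

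Each comparison used edgeR 4.0.16 (R 4.3.3; filterByExpr, TMM, robust quasi-likelihood F test), with Benjamini-Hochberg adjustment over all genes tested and a threshold of 0.05. The 2 groups of a time were fitted alone, and differences between times came from 1 fit of all 4 groups. The procedure was also run on simulated counts that held no libraries standing apart, and no result here rests on that run. Alternatives were size factors by relative log expression, library totals alone, DESeq2 1.42.0, no filter on low counts, no averaging, other groups in the fit, and leaving out each library. Log2 CPM used a prior count of 2. The genes named beside the 9 are at most the 3 largest changes among those called in each list per comparison, plus partners of the 9 genes and, chosen after its values were seen, Vegfa at 1 day. The 9 genes and all lists were chosen with earlier results of these data known.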

Additional observations from a re-analysis of the deposited data

Results flagged for a closer look

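The silica effect differed between the times, by the interaction test of the edgeR fit of all 4 lung groups, in 6 of the 9 genes. The difference of the log2 fold changes, 6 months minus 1 day, was 0.84 for Ager, 0.78 for Aqp5, 0.61 for Pdpn, 0.48 for Hopx, 0.91 for Igfbp2 and 0.72 for Gprc5a. For Ager the silica effect was 0.65 ± 0.25 at 6 months and -0.22 ± 0.05 at 1 day, and for Igfbp2 it was 0.39 ± 0.19 at 6 months and -0.55 ± 0.11 at 1 day. No sample of any group of 4 to 6 lung libraries stood far enough from the others to be marked in any of the 9 genes, libraries 33 and 35 included. The rule measures the gap between the most extreme sample and the next one. It can therefore miss 2 libraries that lie apart together, as 33 and 35 did in Akap5 (60.6 and 144 CPM), and does not show that they are like the rest.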

How the results depend on the processing

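Of 756 refitted fold changes of the 9 genes, 672 stayed on their side of the threshold without a change of sign (at 2 decimals), 27 lost a call, 30 gained one and 27 changed sign, of values near 0 that were not called; among these Akap5 at 6 months, 0.44 without silica libraries 33 and 35, then passed. Without these libraries Clic5 was 0.09 at 6 months and 0.18 for the difference of effects, and Ager -0.18 between times in silica lungs. With each library separate Akap5 was 0.04 at 6 months and Clic5 0.01 for the difference of effects. Aqp5 between times in silica lungs was 0.01 with relative log expression factors and 0.01 in DESeq2. Leaving out 1 library at a time, at 6 months Clic5 ran from -0.19 to 0.02 and Akap5 from -0.23 to 0.22. For the difference of effects Cav1 ran from -0.02 to 0.12, Clic5 from -0.10 to 0.09 and Akap5 from -0.14 to 0.29. Between times in silica lungs Ager ran from -0.09 to 0.15, Aqp5 from -0.11 to 0.07 and Igfbp2 from -0.15 to 0.03. With all 4 groups in 1 fit, 2 of the 9 genes and 594 genes in all were called at 1 day, and 5 of the 9 (4 higher, 1 lower) and 6499 in all at 6 months. At 6 months DESeq2 called 4 of the 9 and 4181 genes in all. With each library separate, the fit that does not rest on averaging pairs, it was 5 and 6396 in all. Without libraries 33 and 35 it was 5 and 4745 in all. Between times in silica lungs, the 2 groups alone gave 1 of the 9 and 691 in all, DESeq2 2591 in all, and leaving out libraries 33 and 35 gave 6 and 992 in all. Leaving out 1 library at a time gave 1188 to 2240 genes at 1 day. It gave 0 to 3 of the 9 and 56 to 4171 genes at 6 months, and 2 to 6 of the 9 and 1642 to 5570 genes for the difference of effects. Between times it gave 1 to 3 of the 9 and 766 to 2998 genes in silica lungs, and 3643 to 6810 genes in air lungs. With 1 late air library left, it is assumed to vary like the other groups. The cause of these shifts was not tested. Of calls at 1 day, 65.1% were higher in silica with TMM and 52.9% with library totals alone. No paired analysis was possible because silica and air lungs share no replicate number. The precision at 6 months is limited by 2 air libraries.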
